A study of Mus musculus with 6 samples.

Results

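Desmosomes are the spot-like junctions that tie the keratin filaments of neighbouring epithelial cells together. Desmogleins and desmocollins, which are cadherins, bind each other outside the cell, and plakoglobin and the plakophilins connect their tails to desmoplakin, which holds the keratin filaments. Desmoplakin, envoplakin, periplakin and epiplakin belong to the plakins, large linker proteins of the cytoskeleton, and PERP is a small membrane protein of desmosomes. The transcripts described here are the 10 genes Eppk1, Ppl, Evpl, Dsp, Jup, Dsg2, Dsc2, Pkp2, Pkp3 and Perp, selected by name from the 23284 gene names in the files. They were chosen with earlier results of these data known. All 10 had reads in each library and all 10 were among the 13390 genes that passed the filter on low counts.

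Poly(A) RNA was sequenced from preSC cells, a mouse line labelled as a precursor of small cell lung cancer, that carried lentiviral pLKO.1 vectors. The 3 shCrebbp libraries carried hairpins 1, 2 and 5 against Crebbp, the gene of the acetyltransferase CREB-binding protein, with 1 library per hairpin. The 3 control libraries carried the empty vector (shEmpty, control replicates 1 and 2) or a non-silencing hairpin (shNS, control replicate 3). No source used here says whether libraries of a group came from separate cultures, so each p-value reflects the spread among the libraries at hand, which may be technical and which, among hairpins, includes the difference between hairpins.

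The targeted gene Crebbp had 46.2, 58.3 and 48.9 CPM (TMM-normalized counts scaled to library size) with hairpins 1, 2 and 5, against 66.2, 69.6 and 69.4 CPM in control replicates 1, 2 and 3. Its log2 fold change of -0.42 ± 0.10 (SE) did not pass an adjusted p of 0.05 (edgeR adjusted p = 0.0999). Reads in genes numbered between 13622020 and 14651158 in the shCrebbp libraries and between 13687770 and 19804949 in the controls, so 1 CPM stood for 13.6 to 19.6 reads. Markers of neuroendocrine cells were abundant, all 8 being tested, with a summed level of 5580 to 7420 CPM in shCrebbp libraries and 6780 to 7830 CPM in controls. The defining basal cell gene Trp63 had no read in any library. In the pooled comparison 1.25% of tested genes were called, 0.978% lower with the hairpins and 0.276% higher, and the median log2 fold change over all tested genes was 0.01.

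With the Crebbp hairpins 9 of the 10 plakin and desmosome transcripts had lower means. Over all tested genes 46.8% had a negative log2 fold change. Of the 10 genes 2 (20.0%) were called lower, as were 0.978% of all tested genes. The called genes were Eppk1, which fell 3.82-fold, and Ppl, which fell 1.52-fold. No gene of the 10 was called higher, and the 1 with a higher mean was Perp. The median log2 fold change of the 10 was -0.53. In 6 of the 10 all hairpin libraries lay below all controls, as they did in 1473 of the 13390 tested genes (11.0%). In 1 of the 10 they all lay above, as in 11.4% of tested genes (22.4% for either side). Because the 10 genes were chosen with earlier results of these data known, their shares beside those of all genes are no test of the set. RNA of whole cultures was measured, so fewer cells that express a gene and less RNA per cell cannot be told apart.

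**Figure D1:**
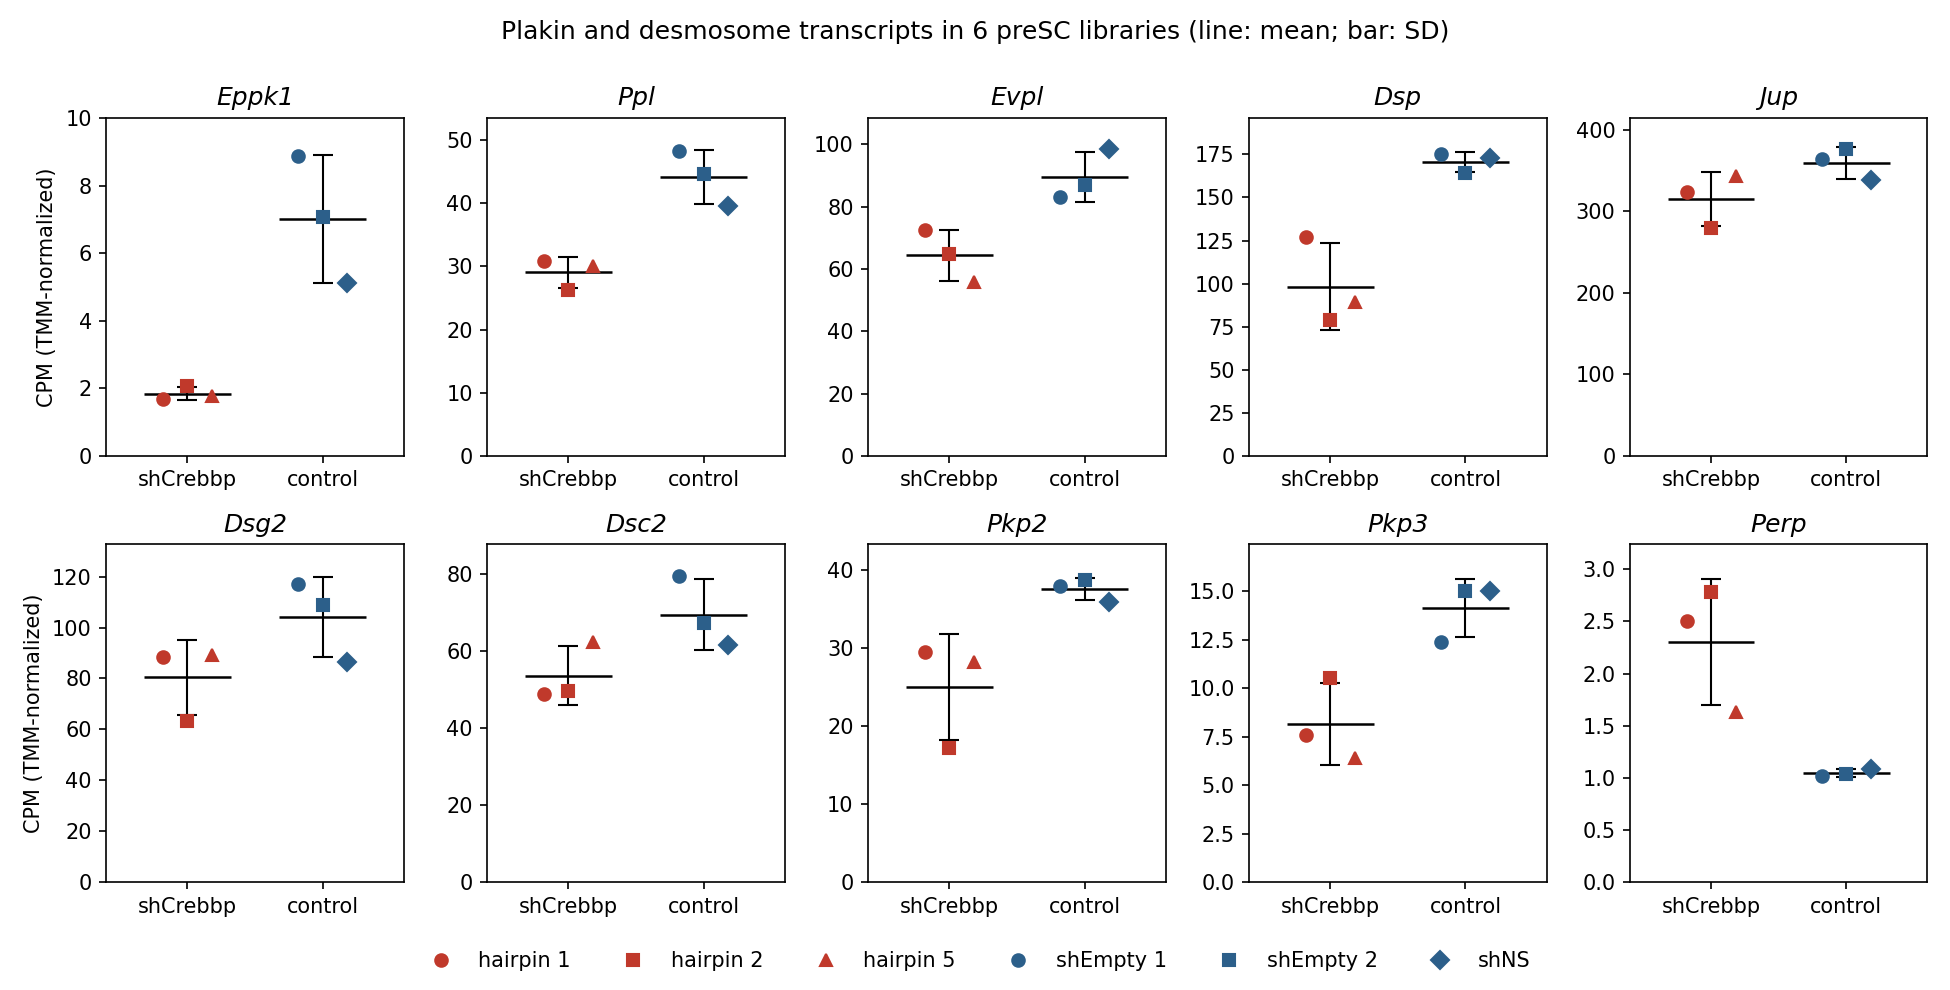
Normalized level (CPM, linear axis from 0) of each of the 10 genes in the 3 shCrebbp libraries (red; marker shape gives the hairpin) and the 3 control libraries (blue; diamond, shNS), with the mean as a line and the SD as a bar. Eppk1, Ppl, Evpl, Dsp, Pkp2 and Pkp3 are lower in each red point than in each blue one, Perp is higher, and Jup, Dsg2 and Dsc2 overlap.

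Scaled to the length of each gene's longest annotated transcript, the junction genes spanned a wide range of levels. Jup, which encodes plakoglobin, was the most abundant, with a level of 98.3 ± 10.2 CPM per kb in shCrebbp libraries and 112 ± 6.06 CPM per kb in controls (SD, n = 3 each). In controls it ranked above 95.9% of the tested genes whose names are in the transcript annotation. Dsg2, Dsp, Dsc2, Evpl and Pkp2 formed a middle group, with control means of 18.1, 17.8, 15.0, 14.0 and 12.8 CPM per kb, in which each gene's control libraries overlapped those of the next gene in the order. Ppl followed at 4.67 ± 0.40 CPM per kb in shCrebbp libraries and 7.10 ± 0.69 in controls, and Pkp3 at 2.79 ± 0.72 in shCrebbp libraries and 4.84 ± 0.51 in controls. Each of these was separated from its neighbours without overlap.

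At the bottom of the order, Eppk1 stood at 0.150 ± 0.016 CPM per kb in shCrebbp libraries and 0.570 ± 0.153 CPM per kb in controls. Perp stood at 1.18 ± 0.31 CPM per kb in shCrebbp libraries and 0.538 ± 0.018 CPM per kb in controls. The control ranges of this pair overlapped, whereas in the hairpin libraries Perp lay above Eppk1 without overlap. Dsp ranked 3 in controls and 4 with the hairpins, behind Dsc2, but the ranges of the pair overlapped in each group, and with the mean transcript length Dsp ranked 3 in both groups. With that length in place of the longest, Evpl and Pkp2 and also Ppl and Pkp3 exchanged ranks in controls.

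**Figure D2:**
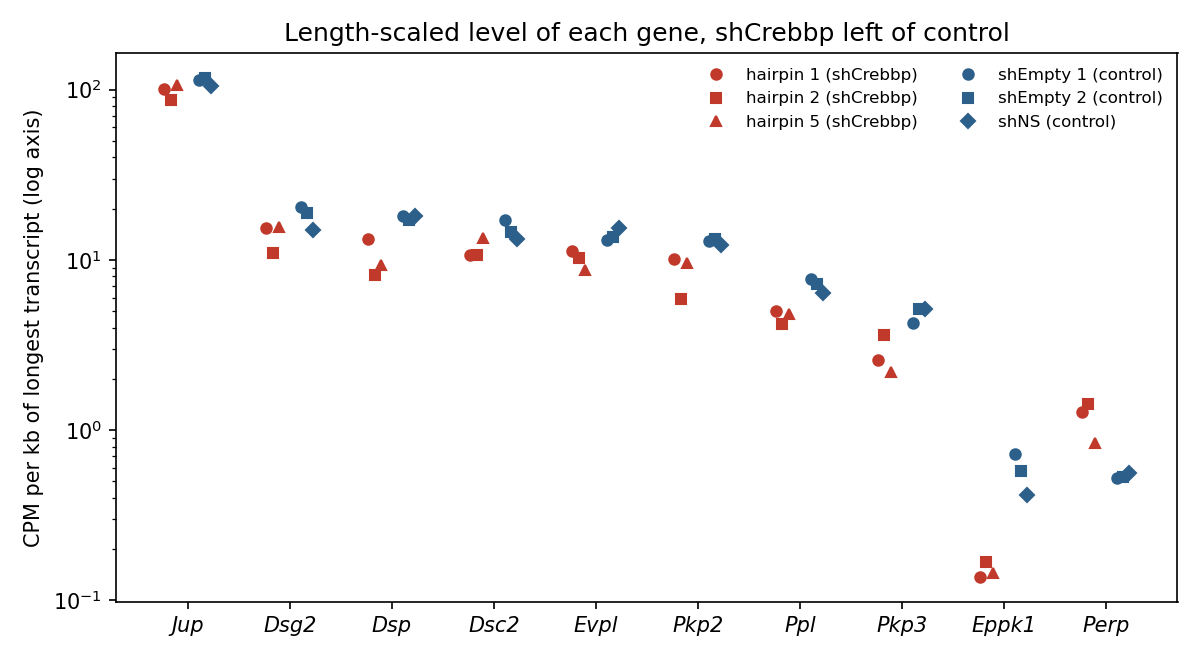
Level of each gene in CPM per kb of its longest transcript (log axis), in shCrebbp libraries (red, left) and controls (blue, right), ordered by the control mean. Jup lies at 87.1 to 117 CPM per kb, and Eppk1 and Perp lie at the bottom, where the red points of Eppk1 are below and those of Perp above the blue ones.

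Among the plakins, epiplakin showed the largest change. Eppk1 encodes a linker built almost entirely of plakin repeats that binds keratin filaments. It had 1.69, 2.07 and 1.77 CPM with hairpins 1, 2 and 5, against 8.89, 7.07 and 5.11 CPM in control replicates 1, 2 and 3. The hairpin libraries lay close together and far below the lowest control, shNS. The log2 fold change was -1.93 ± 0.27 (95% interval -2.55 to -1.31), and the gene was called lower (edgeR adjusted p = 0.0222). These levels rest on 23, 29 and 26 reads with the hairpins and on 174, 116 and 70 reads in the controls. Without control replicate 1 or control replicate 2 the call was lost (edgeR adjusted p = 0.149 and 0.161), with log2 fold changes of -1.73 and -1.94. No tested gene at all was called in those fits. Eppk1 was called in the other 4 fits that left out 1 library.

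The transcript of Eppk1 repeats itself, which bears on its level. Of all 50-base stretches in its 12.33 kb transcript, 25.1% occurred more than once within the transcript and 5.95% also occurred in other annotated genes. The deposited gene counts leave out reads with more than 1 alignment, which made up at most 9.74% of all counts in a library. Whether this lowers the Eppk1 level was not tested, and it would touch all libraries. None of the other 9 genes held a stretch of that length that was repeated within its longest transcript.

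Periplakin, the partner of envoplakin, was the second gene called. Ppl had 30.9, 26.2 and 30.0 CPM with hairpins 1, 2 and 5, against 48.2, 44.6 and 39.6 CPM in control replicates 1, 2 and 3, and the groups did not overlap. It fell by 0.60 on the log2 scale (SE 0.11, 95% interval -0.86 to -0.35, edgeR adjusted p = 0.0484), close to the threshold. The call was lost in 5 of the 6 fits that left out 1 library. Their adjusted p values were 0.259, 0.260 and 0.0933 without control replicates 1, 2 and 3, and 0.0838 and 0.0554 without hairpins 2 and 5. In the fits without control replicate 1 or 2 no tested gene at all was called. The call of Ppl is meant in what follows. The call of Ppl was also lost in limma-voom (adjusted p = 0.0515).

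Envoplakin, which pairs with periplakin at desmosomes and in the cornified envelope of skin, did not pass. Evpl had 72.4, 64.8 and 55.9 CPM with hairpins 1, 2 and 5, against 83.2, 86.9 and 98.4 CPM in control replicates 1, 2 and 3. All hairpin libraries lay below all controls. The log2 fold change was -0.47 ± 0.12 (95% interval -0.74 to -0.21, edgeR adjusted p = 0.0974). DESeq2 called it lower (adjusted p = 0.0111), as did limma-voom with quality weights (adjusted p = 0.0168) and edgeR once hairpin 1 was left out (adjusted p = 0.0434). Evpl was thus called in 2 of the 8 alternatives that used all 6 libraries and in 1 of the 6 that left out 1 library. In contrast with Eppk1 and Ppl, its highest control was shNS.

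Desmoplakin is the plakin that anchors keratin at the desmosome. Dsp had 127, 78.6 and 89.1 CPM with hairpins 1, 2 and 5, against 175, 164 and 173 CPM in control replicates 1, 2 and 3. The controls agreed to within 3.39% (coefficient of variation), whereas the hairpin libraries varied by 25.9%, with hairpin 1 nearest to the controls. The log2 fold change was -0.80 ± 0.16 (95% interval -1.17 to -0.42) and missed the threshold (edgeR adjusted p = 0.0640). Without hairpin 1 it was -1.03 and passed (edgeR adjusted p = 0.00496), and it passed with all 6 libraries in DESeq2 (adjusted p = 0.000308) and in limma-voom with quality weights (adjusted p = 0.00353).

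Plec, Dst and Macf1, which encode the other plakins plectin, dystonin and the microtubule-actin crosslinking factor, were all tested. None of these 3 was called in edgeR or DESeq2, and 0 had an unadjusted p under 0.05. Dst had 195, 211 and 200 CPM with hairpins 1, 2 and 5, against 264, 233 and 209 CPM in control replicates 1, 2 and 3 (log2 fold change -0.22, edgeR adjusted p = 0.314). For Macf1 the log2 fold change was 0.04 (adjusted p = 0.901), and for Plec the 95% interval ran from -0.29 to 0.28. Scaled to length, Plec stood at 5.75 ± 0.98 CPM per kb in shCrebbp libraries and 5.76 ± 0.05 CPM per kb in controls, near the level of Ppl.

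Plakoglobin had the smallest change by size among the 10 genes. Jup, which encodes this plaque protein plakoglobin of desmosomes and adherens junctions, had 323, 279 and 343 CPM with hairpins 1, 2 and 5, against 364, 376 and 338 CPM in control replicates 1, 2 and 3. Hairpin 5 and shNS overlapped. The log2 fold change was -0.19 ± 0.10, with an interval of -0.41 to 0.03 that spans 0 (edgeR adjusted p = 0.380). That interval does not overlap those of Eppk1 and Dsp, but the difference between genes was not tested. Per read of Jup there were 0.393, 0.282 and 0.260 reads of Dsp with hairpins 1, 2 and 5, against 0.481, 0.436 and 0.512 reads in control replicates 1, 2 and 3, on normalized counts.

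The promoters of Dsp and Jup are shown because they are the members with an entry in the promoter table, and because Dsp had a larger change by size than Jup, its partner in the plaque. Both come from RefSeq (GRCm38.p6), each covering 250 bases before and 50 after a start site; of the 10 genes, 2 matched the promoter table. Dsp lies at chr13:38151044-38151343 on the plus strand and Jup at chr11:100397741-100398040 on the minus strand, and each is printed 5′ to 3′ along its gene. Capitals mark the GC box GGGCGG and the E-box CACCTG, sought on both strands.
Dsp: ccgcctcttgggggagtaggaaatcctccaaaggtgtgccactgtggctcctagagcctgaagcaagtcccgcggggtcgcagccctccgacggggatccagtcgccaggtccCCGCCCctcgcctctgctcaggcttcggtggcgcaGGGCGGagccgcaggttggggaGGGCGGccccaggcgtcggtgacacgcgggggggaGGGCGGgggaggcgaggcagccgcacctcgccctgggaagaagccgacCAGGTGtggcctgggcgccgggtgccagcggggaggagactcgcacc
Jup: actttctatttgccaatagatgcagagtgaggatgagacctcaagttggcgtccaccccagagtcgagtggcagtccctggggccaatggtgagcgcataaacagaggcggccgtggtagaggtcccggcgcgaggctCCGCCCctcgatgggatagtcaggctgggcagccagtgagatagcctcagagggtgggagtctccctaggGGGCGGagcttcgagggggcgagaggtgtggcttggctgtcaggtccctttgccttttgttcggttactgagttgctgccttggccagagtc
The Dsp window held 4 GC boxes, and 1 E-box that begins 4 bases into the transcript, and its GC content was 73.0%. The Jup window held 2 GC boxes and no E-box, at 60.7% GC. Neither held the cyclic AMP response element TGACGTCA. Of all 32851 promoter windows in the table, 35.7% held a GC box, 20.2% the E-box and 1.79% the TGACGTCA element. These matches describe letters only.

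The desmosomal cadherins had lower means with the hairpins and were not called. Dsg2, desmoglein 2, had 88.3, 63.5 and 89.4 CPM with hairpins 1, 2 and 5, against 117, 109 and 86.6 CPM in control replicates 1, 2 and 3. Hairpin 2 stood lowest, and hairpins 1 and 5 lay just above shNS. The log2 fold change was -0.38 ± 0.16 (95% interval -0.74 to -0.01, edgeR adjusted p = 0.293). Dsc2, desmocollin 2, had 48.9, 49.5 and 62.3 CPM with hairpins 1, 2 and 5, against 79.4, 67.2 and 61.5 CPM in control replicates 1, 2 and 3. Hairpin 5 overlapped shNS, and the log2 fold change was -0.37 ± 0.13 (95% interval -0.68 to -0.07, edgeR adjusted p = 0.216). Some 5.07% of the 50-base stretches of the Dsg2 transcript also occurred in other genes.

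The other cadherin isoforms of the desmosome, which are typical of stratified epithelium, were at or near 0. Dsg1b and Dsg4 had no read in any library, and Dsg1a, Dsg1c, Dsg3, Dsc1 and Dsc3 had between 0 and 2 reads per library. Pkp1, the plakophilin of stratified epithelium, had 10, 7 and 4 reads with hairpins 1, 2 and 5, against 3, 2 and 4 reads in control replicates 1, 2 and 3. These genes did not pass the filter and were not tested. The desmosomal cadherin reads of these cells came almost wholly from Dsg2 and Dsc2.

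The plakophilins are armadillo proteins that cluster cadherins and recruit desmoplakin. Pkp2 and Pkp3 had all hairpin libraries below all controls and were not called in the pooled edgeR comparison. Pkp2 had 29.5, 17.2 and 28.2 CPM with hairpins 1, 2 and 5, against 37.9, 38.7 and 35.9 CPM in control replicates 1, 2 and 3. Hairpin 2 stood well below the other hairpins. Its log2 fold change was -0.59 ± 0.19 (95% interval -1.01 to -0.16, edgeR adjusted p = 0.174), and limma-voom with quality weights called it lower (adjusted p = 0.0437). Pkp3 had 7.57, 10.5 and 6.40 CPM with hairpins 1, 2 and 5, against 12.4, 15.0 and 15.0 CPM in control replicates 1, 2 and 3, so that here hairpin 2 lay nearest to the controls. Pkp3 had a log2 fold change of -0.79 ± 0.20 (95% interval -1.26 to -0.32, edgeR adjusted p = 0.110) and passed with DESeq2 (adjusted p = 0.0201) and with limma-voom with quality weights (adjusted p = 0.0214). Neither Pkp2 nor Pkp3 was called in any of the 6 fits that left out 1 library. Pkp4, a plakophilin-related gene found mainly at other junctions, was the most abundant of these per length, at 52.3 ± 9.21 CPM per kb in shCrebbp libraries and 60.9 ± 3.58 in controls. Its libraries overlapped between the groups, and it was not called (log2 fold change -0.22, edgeR adjusted p = 0.452).

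Perp had the opposite sign. It encodes a tetraspan protein of desmosomes and is a target of p53 and p63. There were 2.50, 2.78 and 1.63 CPM with hairpins 1, 2 and 5, against 1.02, 1.04 and 1.09 CPM in control replicates 1, 2 and 3. All hairpin libraries were above all controls, on 34, 39 and 24 reads with the hairpins and 20, 17 and 15 reads in the controls. The log2 fold change of 1.13 ± 0.30 (95% interval 0.43 to 1.83) missed the threshold (edgeR adjusted p = 0.121), and Perp was not called in any of the 14 alternative analyses.

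**Figure D3:**
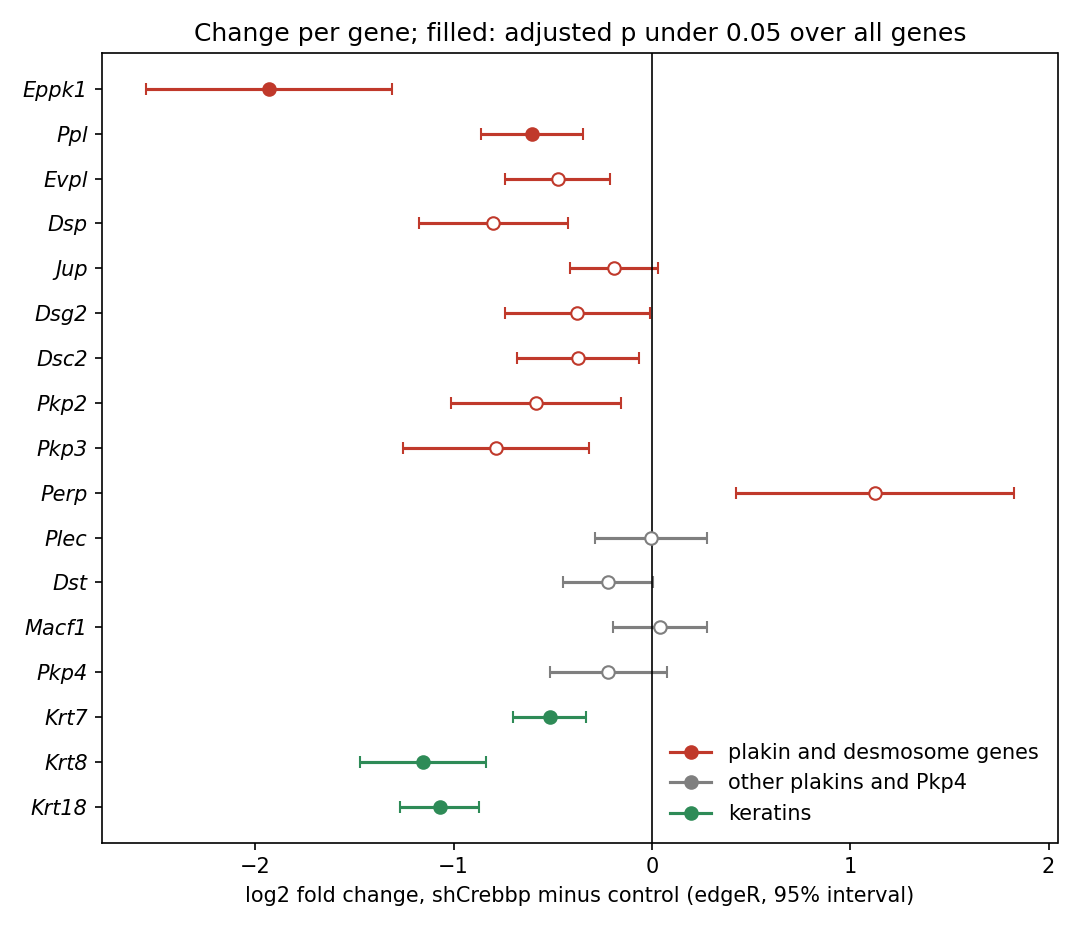
Log2 fold change, shCrebbp minus control, with its 95% interval from edgeR (x axis), for the 10 plakin and desmosome genes (red), the other plakins and Pkp4 (grey) and the tested simple keratins (green); filled points passed an adjusted p of 0.05 over all genes. Eppk1 lies farthest to the left, Perp alone lies to the right among the red points, and the grey points sit near 0.

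The hairpins differed from each other in 2 of the 10 genes. In a fit with each hairpin as its own group, in which a lone library is assumed to vary like the 3 controls, equality of the hairpins was rejected for Dsp (edgeR adjusted p = 0.0116) and Pkp2 (edgeR adjusted p = 0.0198), as it was for 14.0% of tested genes. Dsp was 0.69 ± 0.11 higher on the log2 scale with hairpin 1 than with hairpin 2 (adjusted p = 0.00713) and 0.51 ± 0.11 higher than with hairpin 5 (adjusted p = 0.0292). Pkp2 was 0.77 ± 0.15 higher with hairpin 1 than with hairpin 2 (adjusted p = 0.0139) and lower with hairpin 2 than with hairpin 5 (log2 difference -0.71 ± 0.14, adjusted p = 0.0421). Pkp2 reads per Pkp3 read came to 3.90, 1.64 and 4.41 with hairpins 1, 2 and 5, against 3.06, 2.58 and 2.39 reads in control replicates 1, 2 and 3. Eppk1 had the smallest F statistic of the 10 for a difference between hairpins, with log2 ratios to the control mean of -2.05, -1.77 and -1.99 (adjusted p = 0.899).

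Set against the controls one at a time in that fit, hairpin 1 had 5 of the 10 genes called lower and 1 higher, hairpin 2 had 8 lower and 1 higher, and hairpin 5 had 4 lower and 0 higher. Over all tested genes the shares called lower were 9.32%, 9.03% and 1.88% for hairpins 1, 2 and 5, and the shares called higher 8.61%, 8.48% and 0.866%. Dsp and Eppk1 were called lower with each hairpin. For Dsp the log2 differences from the controls were -0.43 ± 0.09, -1.12 ± 0.09 and -0.94 ± 0.09 with hairpins 1, 2 and 5 (edgeR adjusted p = 0.0120, 0.000326 and 0.00330). Ppl was called with hairpins 1 and 2 but not with hairpin 5 (adjusted p = 0.0299, 0.00771 and 0.0671), although its 3 values lay between -0.76 and -0.52, and the test for a difference between hairpins did not pass (adjusted p = 0.491). Jup and Dsg2 were called with hairpin 2 (adjusted p = 0.0252 and 0.0233), and with neither of the other hairpins, while the tests for a difference between hairpins did not pass (adjusted p = 0.154 and 0.169). These comparisons share the control libraries.

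The control group held 2 kinds of vector. The shNS library lay below both shEmpty libraries in 6 of the 10 genes (Eppk1, Ppl, Jup, Dsg2, Dsc2 and Pkp2), as it did in 37.9% of tested genes. For Eppk1 it had 5.11 CPM, against a mean of 7.98 CPM in the shEmpty libraries (log2 difference -0.64 ± 0.35), and for Dsg2 it had 86.6 CPM, against 113 CPM (-0.39 ± 0.22). The fit that compared these vectors took its spread from the shEmpty libraries and from the 3 different hairpins. Differences among hairpins widen that spread, so a lack of calls does not show that the control vectors agree. None of the 10 was called between shNS and shEmpty in edgeR, none had an unadjusted p under 0.05, and limma-voom called none either. Over all tested genes 0% were called in edgeR, and 100 genes had an unadjusted p under 0.05. With shNS set aside, all 3 hairpin libraries lay below both shEmpty libraries in 9 of the 10 genes and above both in 1, arrangements that 16.2% and 16.5% of tested genes showed.

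Some transcripts followed the same profile over the 6 libraries. Among 11523 genes with a mean log2 CPM of at least 2, the closest to Eppk1 by Pearson correlation of log2 CPM were Cbfa2t3 (r = 0.997), Fgf5 (0.995) and Has3 (0.995), all 3 of which were called lower. The closest to Ppl were Cntn4 (0.998), Gfm1 (0.998) and Cgn (0.998), of which Cntn4 and Cgn were called lower. Cgn encodes cingulin of the tight junction, whereas the log2 fold change of Gfm1 was -0.09. Dsp was nearest to Dock5 (0.993), Marveld2 (0.990), which encodes tricellulin, and Llgl2 (0.988), a cell polarity gene, none of which was called. For Perp the closest was Ide (0.999), with a log2 fold change of 0.09. With 6 libraries in 2 groups and 11523 candidates such values describe likeness only.

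Keratins form the filaments that desmosomes anchor. Of 16 listed keratins 5 were tested, and 3 of these were called lower: Krt7, Krt8 and Krt18, which encode keratins of simple epithelia. Krt8 had 348, 347 and 484 CPM with hairpins 1, 2 and 5, against 925, 889 and 807 CPM in control replicates 1, 2 and 3 (log2 fold change -1.15, edgeR adjusted p = 0.0131). Krt18 had 156, 178 and 186 CPM with hairpins 1, 2 and 5, against 362, 364 and 366 CPM in control replicates 1, 2 and 3 (log2 fold change -1.07, edgeR adjusted p = 0.00593). Krt7 had 749, 693 and 793 CPM with hairpins 1, 2 and 5, against 1030, 1090 and 1070 CPM in control replicates 1, 2 and 3 (log2 fold change -0.52, edgeR adjusted p = 0.0284). Without control replicate 1 or 2 no keratin was called, and neither was any other tested gene. Among keratins of stratified epithelium, Krt5, Krt6a, Krt6b, Krt13, Krt14, Krt15 and Krt16 had at most 2 reads in a library, whereas Krt10 was tested. Krt10 had 8.01, 9.62 and 9.39 CPM with hairpins 1, 2 and 5, against 9.81, 9.15 and 7.23 CPM in control replicates 1, 2 and 3. It was not called (log2 fold change 0.04, edgeR adjusted p = 0.946), nor was Krt80 (log2 fold change -1.21, edgeR adjusted p = 0.09995).

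Among 9 tested genes of other intermediate filaments and lamins none was called in edgeR, although 3 had an unadjusted p under 0.05, and the vimentin gene Vim was too low to test. DESeq2, limma-voom with quality weights, edgeR with no filter and edgeR without hairpin 5 each called 1 gene of the list lower. Lmna, the A-type lamin gene, had the smallest p, with 199, 153 and 228 CPM with hairpins 1, 2 and 5, against 353, 336 and 286 CPM in control replicates 1, 2 and 3 (edgeR adjusted p = 0.0611). The neuronal filament gene Ina, by contrast, lay higher in each hairpin library, at 156 to 168 CPM against 132 to 147 CPM in controls, without passing. Hemidesmosome genes, which anchor the cell to its matrix, gave no call in 5 tested members in edgeR or DESeq2 and no unadjusted p under 0.05, and the collagen XVII gene Col17a1 had at most 2 reads in a library. After Dst, the smallest p among them was that of Cd151, a tetraspanin gene (log2 fold change 0.17, adjusted p = 0.482). Of the cornified envelope list, in which periplakin and envoplakin have a known part, 6 of the 16 genes in the files were tested. None was called in edgeR, 3 had an unadjusted p under 0.05 and DESeq2 called 1 higher. Sprr1a and Lor lay higher in each hairpin library (log2 fold changes 0.85 and 0.39, edgeR adjusted p = 0.132 and 0.159). Tgm5, a transglutaminase gene, lay lower in each of them (log2 fold change -0.98, edgeR adjusted p = 0.204), while the envelope precursor Ivl had at most 1 read in a library.

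Markers of other cell types were few. Of the basal and squamous list 1 of 7 was tested (0.570 to 1.03 CPM in shCrebbp libraries, 0.305 to 0.869 CPM in controls), with Trp63 and Krt15 at 0. Of the club cell list 1 of 5 was tested, Aldh1a1, at 87.0 to 105 CPM in shCrebbp libraries and 119 to 135 CPM in controls; Scgb3a2 was at 0 and Scgb1a1 had reads in 1 library only, 3 with hairpin 2. The alveolar type 2 list had 2 of 5 tested and a sum of 69.5 to 71.5 CPM in shCrebbp libraries and 74.9 to 78.5 CPM in controls. Its defining gene Sftpc had 0.808, 0.855 and 0.272 CPM with hairpins 1, 2 and 5, against 2.76, 1.77 and 1.31 CPM in control replicates 1, 2 and 3. Cardiac muscle, which also has desmosomes, had 1 of 6 tested, Myh7, at 0.294 to 1.21 CPM in shCrebbp libraries and 2.12 to 3.29 CPM in controls. Each tested gene of the club cell, alveolar type 2 and cardiac lists lay lower in all hairpin libraries than in all controls. Most genes of these lists were not tested. Abca3 made up most of the alveolar type 2 sum (log2 fold change -0.11, edgeR adjusted p = 0.532), and Myh7 rested on 4 to 57 reads per library. What part these genes have in the result was not tested.

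For the remaining lists the summed levels overlapped between groups. Alveolar type 1 (3 of 5 tested, Cav1 at 0) summed to 9.66 to 10.5 CPM in shCrebbp libraries and 9.71 to 13.3 CPM in controls, and ciliated cells (3 of the 4 in the files tested) to 13.8 to 25.9 CPM in shCrebbp libraries and 20.6 to 24.1 CPM in controls. Within the ciliated list Ccdc39 lay higher in all hairpin libraries (log2 fold change 1.21, edgeR adjusted p = 0.0779) and Rsph1 lay lower in all of them (log2 fold change -0.91, edgeR adjusted p = 0.153). Fibroblast genes (2 of 6 tested, Col3a1 at 0) summed to 12.6 to 62.7 CPM in shCrebbp libraries and 37.2 to 44.7 CPM in controls. Endothelial genes (1 of 5 tested, Emcn at 0) summed to 0.499 to 0.955 CPM in shCrebbp libraries and 0.664 to 1.02 CPM in controls, and leukocyte genes (1 of 5 tested) to 3.47 to 4.19 CPM in shCrebbp libraries and 2.55 to 4.89 CPM in controls. No mesothelial gene of 4 was tested, and Wt1 was at 0. None of the tested genes in these marker lists was called in edgeR.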

How the data were processed

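Each of the 6 deposited tables lists 1 library's raw counts of reads by gene symbol, with no normalization or pooling by the authors. Per the submitters' processing notes, bcl2fastq 1.8.2, TopHat2 2.0.12, HTSeq 0.6.1 and build mm9 were used; annotation, strandedness and overlap rule, not given in the sources used here, are unknown, so reads of a gene and of an overlapping antisense gene cannot be told apart. The 5 HTSeq summary rows (24.8% to 28.9% of counts) entered neither library sizes nor tests. Libraries of a group were not duplicates (pairwise chi-square over degrees of freedom, 20.4 to 28.4 among the hairpin libraries and 4.08 to 10.9 among the controls).

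The test was that of edgeR 4.0.16 under R 4.3.3 (TMM, filterByExpr, robust quasi-likelihood, group as the only term), adjusted by Benjamini-Hochberg over all tested genes at 0.05; "called" means past that threshold. SEs were derived from fold changes and F statistics, and 95% intervals from the t distribution. Alternatives used limma 3.58.1, DESeq2 1.42.0, other normalizations and filters, and omission of each library. The fit of shCrebbp against control libraries was checked on simulated data. CPM is TMM-normalized. Transcript lengths, 50-base repeats and overlaps come from GENCODE M21 (GRCm38), another build than the files', so no file coordinates are given. The genes named are the 10 members, up to 4 called genes (or the 2 of smallest p) per neighbouring list, the 3 genes of closest profile per member and the 2 most abundant tested markers per list; not all are discussed. Plec, Vim, Tgm5, Krt10, Krt80 and genes at or near 0 reads fall outside that rule and were chosen after their values were seen. Members, lists and rules were chosen with earlier results of these data known.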

Additional observations from a re-analysis of the deposited data

Results flagged for a closer look

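Dsp and Pkp2 are listed because their levels differed between the 3 hairpins against the same gene, as did those of 14.0% of all tested genes, so that 2 of 10 is close to the share over all genes. The edgeR F test for equal hairpins gave adjusted p = 0.01161 for Dsp, which had 127, 78.6 and 89.1 CPM with hairpins 1, 2 and 5, against 164 to 175 CPM in the controls. For Pkp2 it gave adjusted p = 0.01982, with 29.5, 17.2 and 28.2 CPM with hairpins 1, 2 and 5, against 35.9 to 38.7 CPM in the controls. Crebbp itself was at 46.2, 58.3 and 48.9 CPM in those hairpin libraries, and whether its level bears on these differences was not tested. Each hairpin is 1 library, and a difference between hairpins and one between cultures cannot be told apart.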

How the results depend on the processing

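With all 6 libraries, all genes called numbered 168 in the primary edgeR analysis, 730 with DESeq2 and 682 with limma-voom using quality weights. Members called were 2 in the primary analysis, 5 with DESeq2, 1 with limma-voom and 6 with quality weights, all lower. The shares of all tested genes called in these fits, in either direction, were 1.25%, 5.45%, 1.19% and 5.09%. Called genes in the neighbouring lists were 3, and 5 with DESeq2. Leaving out 1 library gave between 0 and 389 called genes, 0 to 4 members and 0 to 4 neighbouring genes; the edgeR counts were 0 without either shEmpty library, although 7 and 8 members then had an unadjusted p under 0.05, as did 1332 of 13568 and 1238 of 13540 tested genes. Without shNS 1 member was called (0.354% of all tested genes), and without hairpins 1, 2 and 5 there were 4, 1 and 1 (2.72%, 0.749% and 2.87% of all tested genes). The cause was not tested. Over the 14 alternatives, no member changed direction; of 140 fold changes, 123 kept their side of the threshold, 9 newly passed and 8 no longer passed. For the 7 members whose hairpin libraries all lay on one side of the controls, the kept direction, though not the call, was largely fixed in advance. Jup, Dsg2, Dsc2 and Perp were called in none. The counts of members called between hairpins (2) and between shNS and shEmpty (0) were the same under each alternative run for them. Mean transcript length raised the length-scaled control levels of 7 members, Jup to 263 CPM per kb. Low counts limit Eppk1 and Perp. No paired analysis was possible because the labels number the shCrebbp libraries by hairpin, and of the controls only the second shEmpty library has a number in its label.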
